A study of Mus musculus with 2 samples.

Results

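The 10 genes described here are ligands, receptors and modulators of TGF-beta and activin signalling, chosen by gene symbol from the 13916 protein-coding genes of a comparison between the distal and the proximal side of mouse limb-mesenchymal organoids. All 10 were found in the table: the TGF-beta ligands Tgfb1, Tgfb2 and Tgfb3, the activin subunit Inhba, the latent ligand carrier Ltbp1, the activin antagonist Fst, the receptors Tgfbr1, Tgfbr2 and Tgfbr3, and the intracellular inhibitor Smad7. The organoids were grown from embryonic limb mesenchymal cells of Slc:ICR mice, and both sides had the same 48 h of culture in medium with Fgf8b and Wnt3a. Per the labels, 5 organoids from 4 cultures were frozen on day 2. Areas of 10 µm sections fixed with 4% paraformaldehyde were captured by photo-isolation chemistry, in which chosen areas are exposed to light (365 nm for 3 min here). The distal group was 1 library that pooled 5 barcoded distal regions, and the proximal group 1 library that pooled 5 barcoded proximal regions, so side and library cannot be told apart. The design asked which transcripts are enriched on either side. No animal ages, and no link between a region and an organoid or culture, were given in the sources used here, so p-values measure only the spread between regions that shared a library and may have shared an organoid.

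TGF-beta ligands are secreted in a latent complex that latent TGF-beta binding proteins tether to the matrix, and the released ligand assembles a type II receptor (Tgfbr2) with a type I receptor (Tgfbr1). The type I receptor phosphorylates Smad2 and Smad3, which enter the nucleus with Smad4, while Smad7 is induced by the pathway and blocks its receptors. Activin A, a dimer of the Inhba product, uses other receptors to reach the same Smads and is bound and neutralized by follistatin, the product of Fst. In the developing limb these signals are known for roles in cartilage condensation, in the formation of tendon and joints, and in muscle growth.

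One of the 10 genes differed between the sides past the threshold of the authors' deposited table, an adjusted p under 0.05. Tgfb3 was 3.03-fold higher in proximal. Over all genes of the authors' deposited table, 136 of 13916 (0.977%) were called, of which 55 (0.395%) had higher distal and 81 (0.582%) higher proximal values, and among the 3757 genes with a mean of at least 10 normalized counts the share was 3.03%. At an unadjusted p under 0.05, 5 of the 10 genes passed, against 6.07% of all genes of the authors' deposited table. That share is not matched by mean: the median mean of all genes was 3.40, while 6 of the 10 had a mean of at least 10. Of the 5 that passed, Tgfb3, Tgfbr2, Ltbp1 and Fst had higher values in proximal, and Inhba was the one with higher values in distal. Only Tgfb3 passed the adjusted threshold, so the other 4 are given below by their values. The median log2 change of the 10 genes, coded as distal over proximal in the authors' deposited table, was -0.50, beside 0.067 for all genes. For the 6 of them with a mean of at least 10 it was -0.34, beside 0.0047 for all genes with such a mean. The 10 genes were chosen with results of these data known, and their medians and counts are descriptions.

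**Figure D1:**
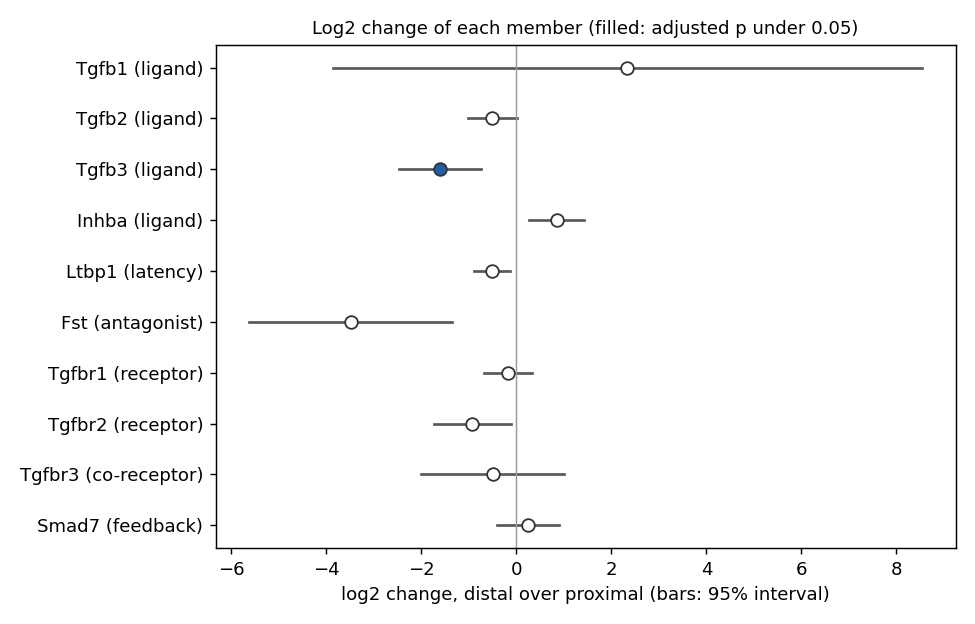
Log2 change of each gene, distal over proximal, in the authors' deposited table, with 95% intervals as bars and a filled point for an adjusted p under 0.05. Tgfb3 is the filled point at -1.60; Inhba lies at 0.85, and the interval of Tgfb1, with 1 count in all, runs from -3.85 to 8.54.

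The depth behind each value was low and unequal. The summed size factors of the proximal regions were 3.30 times those of the distal regions, and the approximate totals were 46991 to 118978 counts per distal region and 214774 to 345649 per proximal region. A level of 3 counts over a side was a mean normalized count of 1.02 in distal and 0.311 in proximal. Whole counts of the 10 regions were recovered for 6 of the 10 genes (Tgfb1, Tgfb3, Tgfbr2, Tgfbr3, Fst and Smad7) as the one set of counts that gave the deposited mean, log2 change and standard error. For Tgfb2, Tgfbr1, Ltbp1 and Inhba the means were above the range searched, so fitted side levels and approximate side counts are given. The recovered regions are known by side and by rank of depth, not by barcode. Region values below are normalized counts, which are counts divided by the region's size factor, listed from the deepest to the shallowest region of a side. Limb mesenchyme markers were present on both sides: all 8 were in the table, with summed fitted levels of 594 in distal and 592 in proximal. Single markers differed in opposite directions, with Msx1 called higher in distal and Pdgfra and Tbx5 called higher in proximal.

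Among the ligands, Tgfb3 (ENSMUSG00000021253; GRCm38, chr12:86056745-86079041, minus strand) encodes TGF-beta 3, which is known for its part in palate fusion. The 5 distal regions held 3, 6, 2, 3 and 1 counts, as normalized counts 3.61, 8.59, 3.58, 5.88 and 3.04, with a mean of 4.94 ± 2.32 (SD, n = 5 regions). The 5 proximal regions held 38, 38, 28, 24 and 22 counts, as normalized counts 15.7, 17.2, 14.3, 15.3 and 14.6, with a mean of 15.4 ± 1.12 (SD, n = 5 regions). Every proximal region lay above every distal region, with a gap of 5.72 normalized counts between the closest pair, and the proximal regions were close to one another. As a background, region counts were recovered for 203 genes with means from 2.5 up to about that of Tgfb3, most of them lower. Of these, 1.97% had all proximal regions above all distal regions and 0.493% had the reverse. The log2 change in the authors' deposited table was -1.60 (standard error 0.44, adjusted p 0.0335) (DESeq2 Wald test), and its 95% interval allowed a fold of 1.66 to 5.51. The distal side rested on 15 counts. With each region left out in turn at the same dispersion, the log2 change stayed between -1.94 and -1.45 while the p lay between 0.000307 and 0.00283. In 5 of those 10 fits the p was above 0.000465, the largest unadjusted p of any call in the authors' deposited table. The p of these model fits was 0.00283, 0.00146, 0.000686 and 0.000858 without the distal region ranked 1, 3, 4 and 5 in depth. It was 0.000582 without the proximal region ranked 2. Its exons overlap those of 2 plus-strand genes, Gm48008 over 257 of 3383 exon bases and Gm37804 over 163, and whether the authors' counting used strand is not given in the sources used here.

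**Figure D2:**
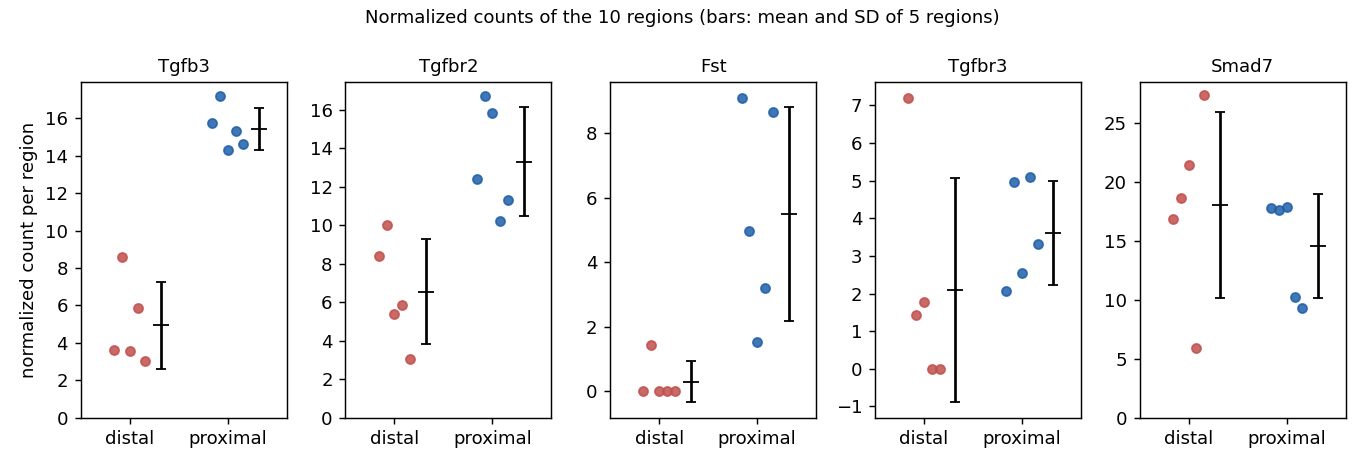
Normalized count of each of the 5 distal and 5 proximal regions for the 5 genes with recovered counts above the floor of 3 counts; black bars give the mean and SD of the 5 regions of a side. The sides do not overlap for Tgfb3, Tgfbr2 and Fst, and they overlap for Tgfbr3 and Smad7. Of 203 background genes, 1.97% had all proximal regions above all distal regions.

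Inhba (ENSMUSG00000041324; chr13:16011851-16031621, plus strand) encodes the subunit of activin A. The fitted levels were 45.4 normalized counts in distal, on about 133 counts, and 25.2 in proximal, on about 243 counts. Its log2 change in the authors' deposited table was 0.85 with a standard error of 0.29, a fold of 1.81 with a 95% interval of 1.21 to 2.69, and the adjusted p was 0.219. Its interval excludes 0 but its unadjusted p of 0.00365 misses the threshold over all genes, since a log2 change of 1.03 would have been needed at this standard error.

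Tgfb2 (ENSMUSG00000039239; chr1:186622792-186705989, minus strand) encodes TGF-beta 2, which is known for roles in the heart, skeleton and palate. The fitted levels were 53.8 normalized counts in distal, on about 157 counts, and 76.1 in proximal, on about 735 counts. Its log2 change of -0.50, from the authors' deposited table, carried an error of 0.26 and missed the threshold (adjusted p 0.948). The 95% interval ran from -1.01 to 0.0055, so a proximal level up to 2.01-fold higher and no difference at all were both within the error. Its exons share 124 of 5791 bases with the antisense gene Gm29491. Tgfb1 (ENSMUSG00000002603; chr7:25687002-25705077, plus strand) encodes TGF-beta 1, the most studied ligand of the family. It had 1 count in 1 distal region and 0 in proximal, so both sides were under the floor of 3 counts and no fold is given. A proximal total of 0 allows a mean level of up to 0.311 normalized counts by counting error alone.

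Ltbp1 (ENSMUSG00000001870; chr17:75005568-75392512, plus strand) encodes a latent TGF-beta binding protein, which holds the inactive ligand in the matrix. Fitted levels of 43.5 normalized counts in distal, on about 128 counts, and 61.7 in proximal, on about 596 counts, differed by -0.50 on the log2 scale. Its standard error was 0.19 and its adjusted p 0.379 by the authors' deposited table, with a 95% interval of -0.88 to -0.13. The log2 change of Ltbp1 was as large as that of Tgfb2 and had a smaller error.

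Fst (ENSMUSG00000021765; chr13:114452290-114458951, minus strand) encodes follistatin, which binds activins and myostatin. The distal regions held 0, 1, 0, 0 and 0 counts, and the one region with a count stood at 1.43 normalized counts. The proximal regions held 22, 11, 3, 5 and 13 counts, as normalized counts 9.10, 4.98, 1.53, 3.19 and 8.65, with a mean of 5.49 ± 3.33 (SD, n = 5 regions). All proximal regions lay above all distal regions, but the lowest proximal region exceeded the highest distal region by only 0.102 normalized counts. Such a separation was found in 1.97% of the 203 background genes. Per unit of depth, the 54 proximal counts against the 1 distal count were a ratio of 16.4, with an exact interval of 2.82 to 659 that covers counting error only. In the authors' deposited table its log2 change was -3.49 with a standard error of 1.09, an unadjusted p of 0.00134 and an adjusted p of 0.116. Fst did not pass the threshold, for which a log2 change of 3.80 in size was needed at its standard error. In the fit, every distal mean of Fst was held at a floor of 0.5 counts. The standard error and p of Fst therefore rest on that floor rather than on the 1 distal count. Its exons share 115 of 4589 bases with the antisense gene Gm47040.

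Muscle markers moved with the proximal side as well. All 9 muscle markers were in the table, and Myog, Actc1, Tnnt1 and Myl1 were called higher in proximal. The 8 of them with recovered counts summed to 4 counts in distal and 367 in proximal, and Pax3, Pax7, Myf5 and Des were at 0 in every distal region. With Actc1 added, the summed fitted levels were 9.70 in distal and 109 in proximal. Over the 8 recovered markers, the distal regions lay between 0 and 3.92 normalized counts and the proximal regions at 41.0, 48.4, 27.6, 22.3 and 47.9. The 2 proximal regions with the lowest muscle sums, ranked 3 and 4 in depth, were also the 2 with the lowest Fst values (1.53 and 3.19). Between them the order was reversed, since the lower sum of 22.3 went with the higher Fst value. The region with the highest sum (48.4), ranked 2, had an Fst value of 4.98, below the 9.10 and 8.65 of the regions ranked 1 and 5. Tgfb3 stood at 14.3 and 15.3 in the regions ranked 3 and 4 and at 14.6 to 17.2 in the other 3. In these regions, fewer cells of a type and less RNA per cell cannot be told apart, and the part of muscle cells in the differences of Fst and Tgfb3 was not tested. Markers of the other cell types, apart from cartilage, were even in sum or sparse. For pericytes and smooth muscle, 4 of 5 markers were in the table, with summed levels of 29.3 in distal and 27.7 in proximal and Myh11 absent. Most of these sums came from Notch3 and Cspg4, with means of 18.4 and 8.73 over all regions. Cnn1 had a mean of 0.338 and counts in proximal regions only, so the sums do not show that smooth muscle was even. For endothelium, 3 of 5 were in the table (1.29 and 0.809), for blood 2 of 6 (0.286 and 1.42), and for surface ectoderm 4 of 6 (0.678 and 0.933). Cartilage markers summed to 1223 in distal and 831 in proximal over 4 of 5 genes and did not all go one way. Sox9, the regulator of cartilage fate, was called higher in distal and had the highest mean of the 4, while the cartilage matrix gene Acan had 7 distal and 69 proximal counts (log2 change -1.57, adjusted p 0.79, in the authors' deposited table).

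Of the receptors, Tgfbr2 (ENSMUSG00000032440; chr9:116084293-116175360, minus strand) encodes the type II receptor that binds the ligand. The distal regions held 7, 7, 3, 3 and 1 counts, as normalized counts 8.41, 10.0, 5.37, 5.88 and 3.04 (mean 6.55 ± 2.72, SD, n = 5 regions). The proximal regions held 30, 37, 31, 16 and 17 counts, as normalized counts 12.4, 16.7, 15.8, 10.2 and 11.3 (mean 13.3 ± 2.85, SD, n = 5 regions). The 2 sides did not overlap, by a margin of 0.188 normalized counts. The log2 change of -0.93, from the authors' deposited table, had a standard error of 0.41, a 95% interval of -1.73 to -0.12 and an adjusted p of 0.656. Like Fst, Tgfbr2 had regions that separated by side without passing the threshold, and a log2 change of 1.44 in size would have been needed. All proximal regions lay above all distal regions in 1.97% of the 203 background genes.

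Tgfbr1 (ENSMUSG00000007613; chr4:47353222-47414931, plus strand) encodes the type I receptor kinase. Its fitted levels were 22.6 normalized counts in distal, on about 66.1 counts, and 25.5 in proximal, on about 246 counts. The log2 change in the authors' deposited table was -0.17 (standard error 0.26, adjusted p 0.991), and its interval from -0.68 to 0.33 leaves room for a change of either sign. Tgfbr3 (ENSMUSG00000029287; chr5:107106570-107289629, minus strand) encodes betaglycan, the co-receptor that presents TGF-beta 2 and lets inhibin bind. Its distal regions held 6, 1, 1, 0 and 0 counts (7.21, 1.43, 1.79, 0 and 0 normalized counts, mean 2.09 ± 2.98, SD, n = 5 regions), and its proximal regions 5, 11, 5, 8 and 5 (2.07, 4.98, 2.56, 5.11 and 3.33, mean 3.61 ± 1.38, SD, n = 5 regions). The highest distal region stood above every proximal region while 2 distal regions had no count, so the sides overlapped. Its log2 change in the authors' deposited table was -0.50 (standard error 0.77, adjusted p 0.991). Without the deepest distal region, which held 6 of the 8 distal counts, the log2 change was -1.89 and its p 0.0943. Its exons share 297 of 6545 bases with Gm43422 on the same strand.

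Smad7 (ENSMUSG00000025880), the feedback inhibitor of the pathway, had values that overlapped between the sides. The distal regions held 14, 13, 12, 3 and 9 counts (16.8, 18.6, 21.5, 5.88 and 27.4 normalized counts, mean 18.0 ± 7.89, SD, n = 5 regions). The proximal regions held 43, 39, 35, 16 and 14 counts (17.8, 17.6, 17.9, 10.2 and 9.32, mean 14.6 ± 4.40, SD, n = 5 regions). The lowest and the highest of the 10 regions were both distal. In the authors' deposited table the log2 change was 0.25 with a standard error of 0.34, a 95% interval of -0.41 to 0.91 and an adjusted p of 0.991. The difference was within the spread of the regions, and a log2 change under 1.18 in size could not have been called at this standard error.

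**Figure D3:**
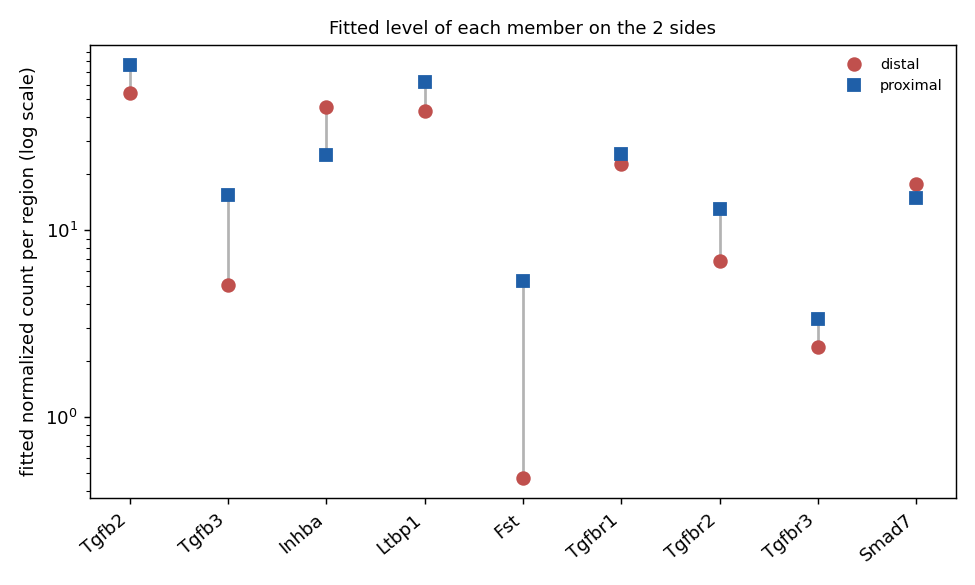
Fitted normalized count of each gene in distal (circles) and proximal (squares) on a log scale; Tgfb1 is left out because both of its sides are under 3 counts. The grey line of a gene is its difference between sides, longest for Fst (1 distal count); levels of different genes are not compared because transcript length was not corrected for.

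How much of each error came from counting differed among the genes. The standard error of a log2 change has a part set by the number of counts and a part set by the spread between regions beyond counting. For Tgfb3 the counting part was 79.5% of the variance, for Tgfbr2 70.9% and for Tgfbr3 62.0%. No share is given for Fst, because the fit held its distal means at a floor of 0.5 counts. By contrast the counting part was 24.0% for Tgfb2 and 28.2% for Inhba. The fitted spread between regions beyond counting was there a coefficient of variation of 24.5% and 27.0%. Ltbp1 had a coefficient of variation of 14.1% and a counting share of 53.6%. The counting shares of all genes are approximate, since they come from fitted side levels. The spreads of Tgfb2, Inhba, Ltbp1 and Tgfbr1 are approximate for the same reason. All are spreads of the authors' fit, which shares information between genes.

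**Figure D4:**
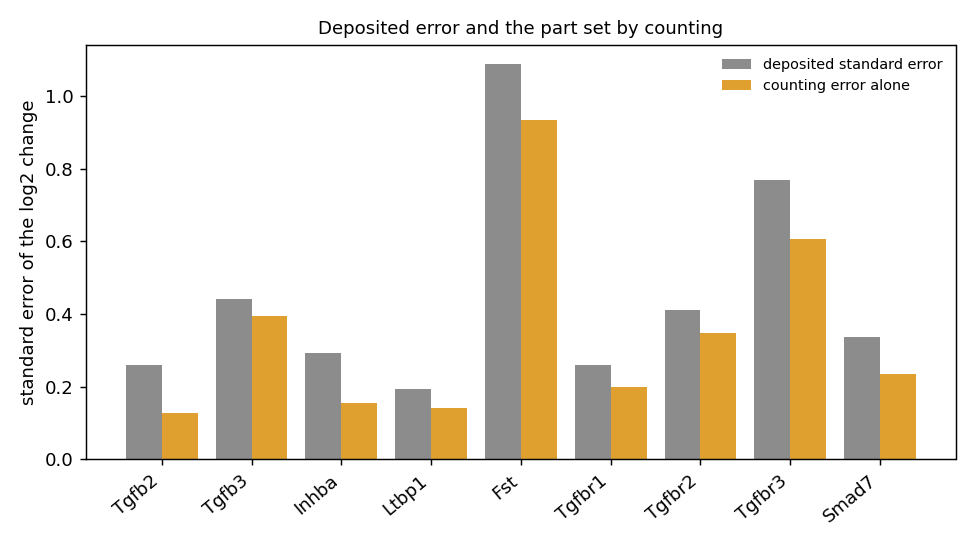
Standard error of the log2 change in the authors' deposited table (grey) beside the error that counting alone would give (orange), both on the log2 scale. The orange bar nearly reaches the grey one for Tgfb3 (79.5% of the variance). As a share of the variance, the counting part is lowest for Tgfb2 (24.0%) among the genes drawn. Tgfb1, with 1 count, is left out. Both bars of Fst rest on the floor of 0.5 counts for fitted means, not on its 1 distal count.

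The start sites of 6 of the 10 genes were matched in a table of RefSeq promoters (GRCm38.p6); Tgfb3, Tgfbr3, Fst and Smad7 were not matched. The 250 bases before the start are shown for Inhba, the one gene with higher distal values at an unadjusted p under 0.05, and for Tgfb2 and Tgfbr2, a ligand and a receptor with higher proximal values. Capitals mark the 4-letter Smad half-site GTCT, or AGAC where it lies on the other strand.
Inhba, chr13:16011601-16011850, plus strand: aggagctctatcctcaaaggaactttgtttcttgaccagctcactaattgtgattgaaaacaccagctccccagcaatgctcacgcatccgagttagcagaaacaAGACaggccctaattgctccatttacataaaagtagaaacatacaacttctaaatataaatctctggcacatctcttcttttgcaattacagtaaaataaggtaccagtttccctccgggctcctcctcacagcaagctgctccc
Tgfb2, chr1:186705990-186706239, minus strand: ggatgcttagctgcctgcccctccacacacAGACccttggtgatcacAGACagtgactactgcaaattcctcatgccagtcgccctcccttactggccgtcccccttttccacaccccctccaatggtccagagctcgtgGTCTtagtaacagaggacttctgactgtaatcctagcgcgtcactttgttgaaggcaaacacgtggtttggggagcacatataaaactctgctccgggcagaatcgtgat
Tgfbr2, chr9:116175364-116175613, minus strand: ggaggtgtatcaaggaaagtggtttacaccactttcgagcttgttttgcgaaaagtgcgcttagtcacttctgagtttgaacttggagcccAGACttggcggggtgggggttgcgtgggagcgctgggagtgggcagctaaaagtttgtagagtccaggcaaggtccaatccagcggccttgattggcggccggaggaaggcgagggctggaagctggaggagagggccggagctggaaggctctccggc
The windows of Inhba and Tgfbr2 held 1 half-site each and that of Tgfb2 held 3. On both strands, GTCT occurred in 82.9% of the 32851 promoter windows of that length, so these matches are common letters and name no site in use. The palindrome GTCTAGAC, which contains GTCT, occurred in 0.167% of all windows and in none of these 3. The letters TATAAA occurred on either strand in 12.4% of all windows, and once each in those of Inhba and Tgfb2 but not in that of Tgfbr2.

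The wider pathway was read from lists of 54 other genes, 48 of which were in the table. One of the 48, Fbn2, was called in the authors' deposited table, and 9 passed an unadjusted p under 0.05, 8 of them with higher values in proximal. The median log2 change of the 48 was -0.14. For the 19 of them with a mean of at least 10 it was -0.044, beside 0.0047 for all genes with such a mean. The lists were written with earlier results of these data known. These counts are descriptions beside the 0.977% of all genes called and the 6.07% at an unadjusted p under 0.05.

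Among 23 of 27 other ligands and secreted modulators in the table, the median log2 change was -0.30 and 1 gene was called. Fbn2, which encodes the microfibril protein fibrillin-2 that anchors latent complexes, was higher in proximal (log2 change -0.84, standard error 0.16, adjusted p 8.91e-05, in the authors' deposited table). Thbs1, which encodes an activator of latent TGF-beta, had -0.70 (standard error 0.25, adjusted p 0.288). Furin, a protease that cleaves the precursors of these ligands, had -0.47 (adjusted p 0.772, by the authors' deposited table), and the follistatin-like gene Fstl1 had -0.17 (adjusted p 0.991). Bgn, which encodes the TGF-beta binding proteoglycan biglycan and was picked out after its values were seen, had 9 distal and 117 proximal counts. Its distal regions lay between 0 and 4.81 normalized counts and its proximal regions between 7.32 and 16.0, without overlap, beside 1.97% of the 203 background genes. Its adjusted p was 0.0648 in the authors' deposited table. The binding protein genes Ltbp2, Ltbp3 and Ltbp4, also picked out afterwards, rested on 2, 3 and 2 distal counts. Nodal, Lefty2, Inhbc and Inhbe were not listed in the table.

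Of the other receptors and co-receptors, 7 of 8 were in the table, none was called in the authors' deposited DESeq2 results and 1 had an unadjusted p under 0.05. That one was Acvr1b, the type I activin receptor, picked out after its values were seen, with 13 distal and 93 proximal counts and a difference of -1.13 on the log2 scale in the authors' deposited table (standard error 0.52, adjusted p 0.73). Acvr2b, a type II activin receptor, had 0.61 with a standard error of 0.51, and the BMP and activin receptor Acvr1 had -0.72 with one of 0.40. Bambi, a decoy receptor, had -0.30 in the authors' deposited table. The receptors of activin thus had fitted differences of both signs, none past the threshold.

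Among 18 of 19 intracellular genes in the table, the median log2 change was -0.04 and none was called in the authors' deposited DESeq2 results, with 2 at an unadjusted p under 0.05. Smad4, the partner shared by all receptor-activated Smads, had 0.41 (standard error 0.20, adjusted p 0.869). Smad3 had -0.32 with a standard error of 0.22 in the authors' deposited table. Ski, a repressor that binds Smads, had 0.05, and the ubiquitin ligase gene Nedd4l had -0.51 with a standard error of 0.30. The second gene at an unadjusted p under 0.05 was Zeb2, named for that count, with 9 distal and 104 proximal counts; its adjusted p was 0.62, by the authors' deposited table. One distal region of Zeb2 stood at 18.3 normalized counts, above the highest proximal region at 17.4.

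The list of genes known to respond to TGF-beta in mesenchyme held 21 genes, all in the table, and shares Skil and Tgif1 with the intracellular list. Of these 21 genes, 4 were called, all higher in proximal: Acta2, Col1a1, Col1a2 and Col3a1. Over all genes 0.977% were called, and 3.03% of those with a mean of at least 10, as these 4 have. Acta2, which encodes smooth muscle actin and is also expressed in embryonic skeletal muscle, had -4.22 on the log2 scale in the authors' deposited table (standard error 0.77, adjusted p 1.78e-05). The fibrillar collagen genes had -1.19 for Col1a1 (standard error 0.15, adjusted p 4.54e-12), -0.59 for Col1a2 (0.16, 0.0301) and -1.62 for Col3a1 (0.40, 0.0082) there. Of the 21 genes, 6 had an unadjusted p under 0.05, beside 6.07% of all genes, and 5 of the 6 had higher values in proximal. The median log2 change of the 21 was -0.57. Pmepa1 and Skil, both often used as readouts of Smad signalling and picked out after their values were seen, did not pass the adjusted threshold. Pmepa1, a feedback gene, was 1 of those 5, at an unadjusted p of 0.0185 (DESeq2 Wald test). It had -0.69 (standard error 0.29, adjusted p 0.57). Skil had -0.04 (adjusted p 0.995) and passed neither threshold. The fibronectin gene Fn1 stood at -0.10 with a standard error of 0.14 in the authors' deposited table. Ccn2, picked out after its values were seen, had 15 distal and 13 proximal counts and a log2 change of 1.87 (standard error 0.83, adjusted p 0.646), with distal regions between 0 and 8.95 normalized counts and proximal regions between 0 and 3.58. The called collagen genes and Acta2 had higher values in proximal, as did the muscle marker sums given above. Those sums lay between 22.3 and 48.4 in the proximal regions and at most at 3.92 in the distal regions. The pericyte and smooth muscle sums were 27.7 in proximal and 29.3 in distal, and do not show that smooth muscle was even. Region counts were not recovered for Acta2 and the called collagen genes, so values could not be compared with the muscle sums region by region. The part of muscle or smooth muscle cells in the differences of these genes was not tested.

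**Figure D5:**
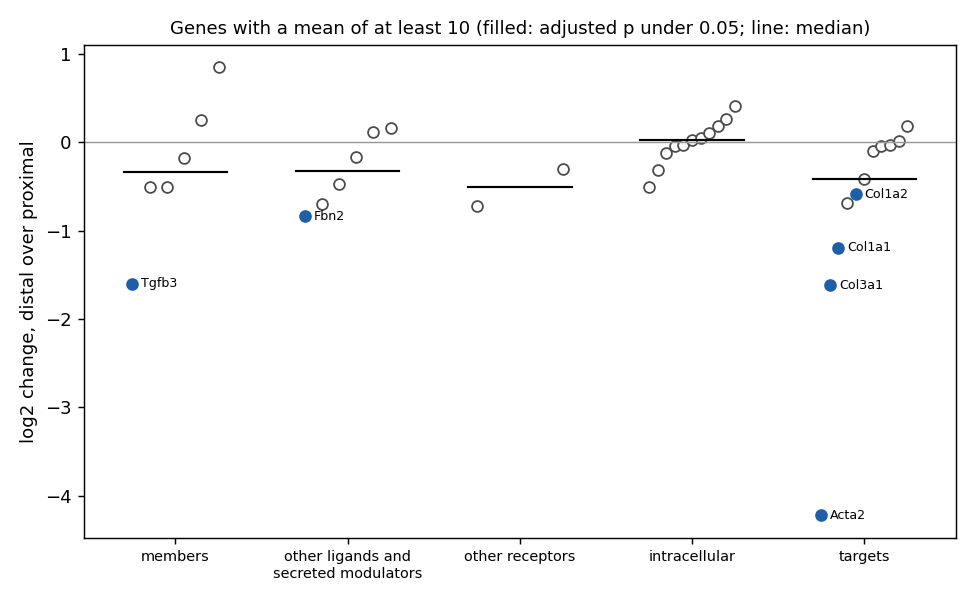
Log2 change, distal over proximal, of the genes with a mean of at least 10 in the authors' deposited table, by role; filled points have an adjusted p under 0.05 and lines are medians. The called genes (Tgfb3, Fbn2, Acta2, Col1a1, Col1a2 and Col3a1) all lie below 0, and no receptor or intracellular gene is filled.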

How the data were processed

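The data are 1 distal and 1 proximal library, each pooling 5 barcoded regions of limb-mesenchymal organoid sections. Per the file headers, the file is the authors' DESeq2 comparison of the sides, with 1 row per protein-coding gene. The mean is a signal, the normalized count averaged over regions, as deposited by the authors. The authors deposited a fitted log2 change (distal over proximal) and its standard error on the log2 scale. The statistic the authors deposited is a score, the log2 change divided by its standard error. The p-value and the adjusted p were deposited by the authors and give the calls, at an adjusted p under 0.05. The builds mm10 and GRCm38 are named per the submitters' processing notes; the aligner, the counting and the depth of reads are not given in the sources used here.

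Size factors of the 10 regions were read from the lowest means, which repeat where a gene has 1 count in 1 region. The authors' negative binomial model was rebuilt, with no fitted mean allowed below 0.5, and the whole counts of the regions were searched for the set that gave the deposited mean, log2 change and standard error. Of 4137 genes with a mean under 0.9, 4063 had 1 matching set, and 4061 of these refitted to within 1e-8 of the deposited log2 change. On counts simulated for 21 genes and searched in the same way, the true set was the sole match for 21. Most of these had means of at most 10.3, below that of Smad7 (16.3), so the search was little tried at such a mean. Side counts of the other genes were approximated from the mean and the log2 change: on 27 genes with known counts these were 0.864 to 1.18 times the true distal counts and 0.927 to 1.08 times the proximal ones. Intervals of 95% are normal for log2 changes and exact for the ratio of counts, and they cover counting error only where so stated. No fold is given where both sides held 3 counts or fewer, and where one side did, the ratio of counts is given with its exact interval. No sample of a side was replicated as a library.

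The background for regions that do not overlap was every 20th gene by mean from 2.5 up to about the mean of Tgfb3, which covers neither Tgfb1 nor Smad7. Of these, 203 of 205 had 1 matching set. Cenpw and Htt, with means of 10.1, close to that of Tgfb3 (10.2), had 2 matching sets each and were left out. A search with BLAST 2.17.0 in GENCODE M21 transcripts looked for near-identical copies (last 300 bases, at least 200 matching at 95% identity), and 0 of the 10 genes had one. Coordinates are those of that annotation on GRCm38. Python 3.11.15, numpy 2.4.6, scipy 1.17.1, pandas 2.3.3 and matplotlib 3.10.9 were used. The genes and lists were chosen with earlier results of these data known. The genes named are the 10 of the rule; in each other list, those called, the 3 with the highest mean and the 2 with the largest log2 change among means of at least 10; and others only where the text says so. Alternatives were another threshold, adjustment, centring or mean filter, and, added after seeing the data, leaving out each region and the recovered counts.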

Additional observations from a re-analysis of the deposited data

Results flagged for a closer look

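In the distal regions of Tgfbr3, the co-receptor gene, the deepest region stood at 7.21 normalized counts, far from the other 4 at 0 to 1.79. The gap to its nearest neighbour was 0.752 of the range of the 5 distal regions. This was the only one of the 9 groups of 5 regions tested that stood apart in this way. The limit used is passed by about 1 in 20 groups of normal values, a rate that counts this low need not follow. The value of 7.21 rested on 6 counts.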

How the results depend on the processing

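At an adjusted p under 0.01, 0 of the 10 genes were called in the authors' deposited DESeq2 results, against 1 at 0.05; 5 had an unadjusted p under 0.05. No other alternative to the threshold, the adjustment or the centring moved that count from 1. In the wider pathway, 2 genes (Bgn and Fbn2) were called at an adjusted p under 0.1 and 2 with log2 changes centred on the median of all genes (0.067), and 0 were called where an absolute log2 change of at least 1 was required beside the adjusted p, against 1 called in the main test. The response genes called were 3 or 4 in every alternative. The median log2 change of the 10 genes stayed negative, from -0.57 to -0.34, and was -0.50 with Fst at its bound and Tgfb1 left out. Of 80 alternatives for single genes, 75 kept their direction and their side of the threshold and none reversed; the other 5 were Tgfb3 with 1 region left out, at log2 changes of -1.94 to -1.45 over all 10 such fits. Those fits held each gene's dispersion at its value over all 10 regions. The log2 change with each region left out ran from -1.12 to -0.81 for Tgfbr2, -3.98 to -3.20 for Fst, -1.89 to -0.22 for Tgfbr3 and 0.11 to 0.46 for Smad7. Fst had adjusted p-values of 0.0878 to 0.116 over the alternatives and Inhba 0.0775 to 0.315, so neither passed. No paired analysis was possible because each side was 1 library and the recovered regions carry no number that links them across sides. Depth limits the distal values most: Tgfb3 rested on 15 distal counts, Fst on 1 and Tgfbr3 on 8.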
